A study of Gallus gallus with 8 samples.

Results

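Genes of bone morphogenetic protein (BMP), transforming growth factor-beta (TGF-beta) and activin signalling were read in chicken tail discs that were fusing into the pygostyle and in discs that stayed free. The members were 49 listed gene symbols, and the 48 that were found in the deposited table of 24154 genes were kept. *SMAD2*, the missing symbol, stands in that table as separate Z and W copies. The members were sorted by role into 10 BMP and growth differentiation factor (GDF) ligands, 5 TGF-beta, activin and inhibin chains, 11 receptors, 11 antagonists and modulators, 7 SMADs and 4 ID targets.

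The series holds 8 polyA RNAseq libraries of intervertebral discs (IVDs), 4 from discs fusing into the pygostyle (fusing pygostyle IVDs) and 4 from discs of the free tail vertebrae (free IVDs), and replicates carry the number in their titles. All 8 came from chickens aged 10 wk, the labels name the breed as white leghorn, and the methods name it as Tetra. No genotype, allele or treatment is named for any sample, and the tissues differ by label in the place of the disc in the tail and in whether it was fusing. The methods give 8 chickens as the source, and discs at several stages of fusion were combined from each pygostyle. It is not stated whether both tissues came from the same birds, so the p-values describe only the spread between these libraries.

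Ligands of this superfamily are secreted dimers that bring together type I and type II receptor kinases on the cell surface. BMP receptors pass the signal to SMAD1, SMAD5 and SMAD9, and TGF-beta and activin receptors pass it to SMAD2 and SMAD3. Both sets join SMAD4 and enter the nucleus, where the *ID* genes are among the direct targets of the BMP branch. Secreted antagonists such as noggin, chordin, gremlin and follistatin bind ligands before they reach a receptor. In skeletal tissue these signals are known for their roles in cartilage, joint and bone formation and in the upkeep of fibrous matrix.

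Total counts per library ran from 5682402 (fusing replicate 2) to 18434459. Levels are given in CPM (counts per 1000000 counts of the library, scaled with TMM factors), and a gene was called when edgeR's quasi-likelihood test gave a Benjamini-Hochberg adjusted p under 0.05 over all 13639 tested genes and a change of more than 2-fold. Of all tested genes, 13.2% were called higher in fusing discs and 9.64% lower. In 19.6% of them all 4 fusing libraries lay above all 4 free libraries, and in 20.2% all 4 lay below. Several lists of cell type markers moved with the tissue too. Summed heterophil markers were at 49.8 to 300 CPM in free and 986 to 4511 CPM in fusing libraries, with 8 of 8 genes called higher, and 8 of 8 macrophage markers were called higher as well (31.0 to 88.8 CPM against 263 to 419 CPM). Osteoblast markers rose in 7 of 9 genes (19.4 to 509 CPM against 1929 to 2543 CPM) and osteoclast markers in 5 of 8, with 1 lower (311 to 1136 CPM against 2539 to 3668 CPM). Hypertrophic cartilage markers rose in 2 of 4 genes (51.4 to 7702 CPM against 9065 to 24196 CPM). Annulus and tendon markers fell in 5 of 8 genes, with 1 higher (25144 to 46797 CPM against 2216 to 4132 CPM). Cartilage markers, which define disc and end plate tissue, were high in every library, at 140185 to 227207 CPM in free and 55266 to 158724 CPM in fusing discs, with 1 of 10 genes called higher and 2 lower. None of the 10 endothelial, 5 erythroid, 5 skeletal muscle and 6 smooth muscle or pericyte markers was called. Of the 6 nucleus pulposus markers 2 were tested, and 1 of these was called higher. The sum of the 6 was at 155 to 535 CPM in free and 108 to 310 CPM in fusing libraries. No marker of these lists was at 0 in all libraries. The part of these cell types in the results below was not tested, and in bulk tissue fewer cells of a type and less RNA per cell cannot be told apart.

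Of the 48 members, 45 passed the filter on low counts, and 11 of these were called higher and 14 lower in fusing pygostyle IVDs. These are 24.4% and 31.1% of the tested members, against the 13.2% and 9.64% of all tested genes. The members were chosen with earlier results of these data known, so these shares do not test for an excess of calls. The median log2 fold change of the tested members was -0.38, beside 0.013 over all tested genes. All 4 fusing libraries lay above all 4 free ones for 12 of the 45 tested members and below them for 18, beside 19.6% and 20.2% of all tested genes. The calls by role group given below stand beside the same 13.2% and 9.64% of all tested genes, and each group had at most 10 tested members. The direction of the count of calls depended on scaling. When library totals replaced TMM factors, the median of all genes moved up by 0.69 on the log2 scale, and 16 members were called higher and 7 lower. These are 35.6% and 15.6% of the tested members, beside 30.6% and 4.58% of all tested genes in that fit. Of the 25 called members, 16 kept their call in all 16 alternative settings (9 higher and 7 lower), and 20 kept it in the 15 settings other than library totals.

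**Figure D1:**
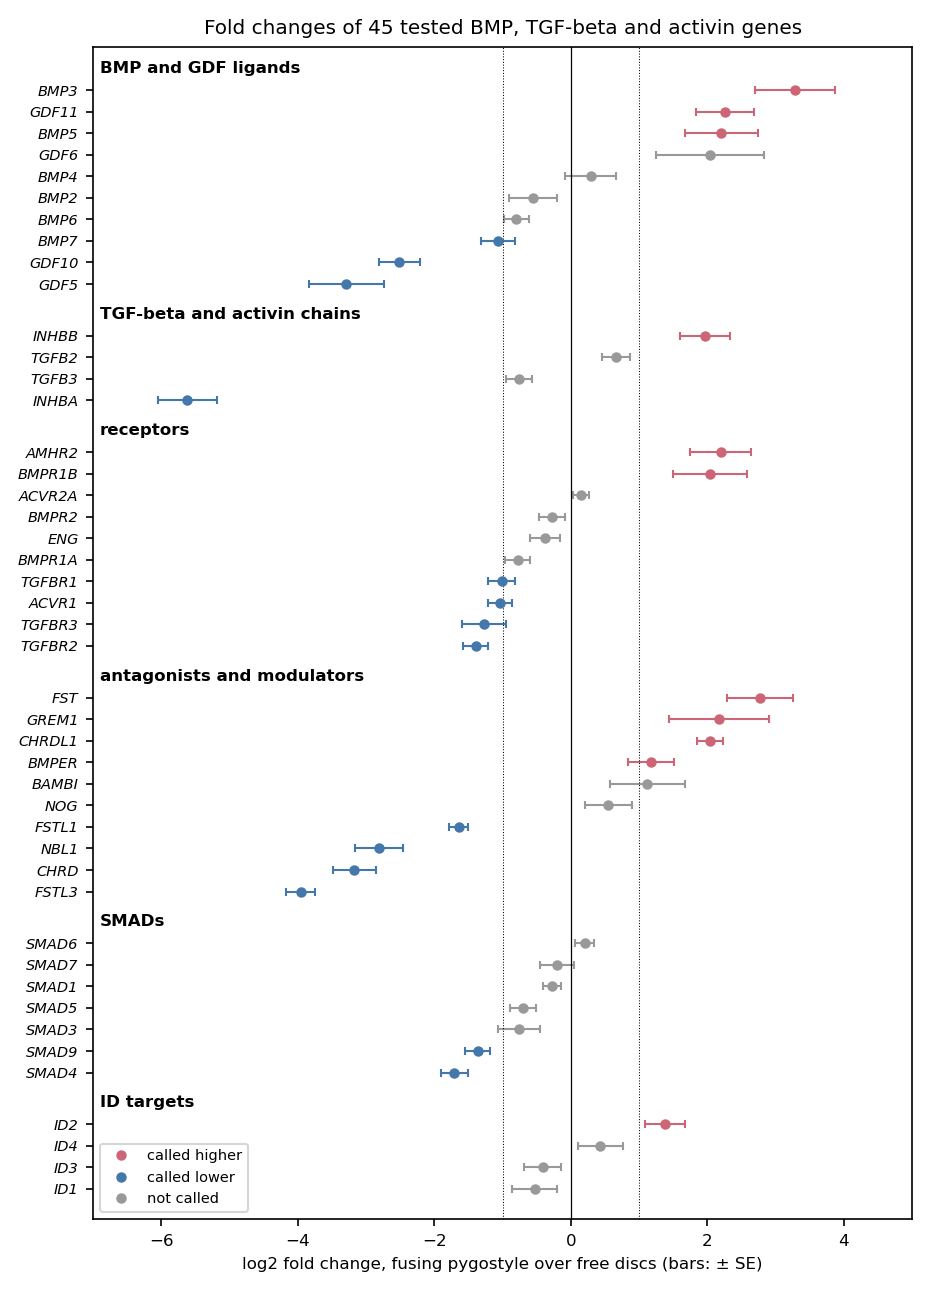
Log2 fold changes of the 45 tested members, fusing over free discs, on the x axis, grouped by role and ordered by size, with bars of 1 SE and dotted lines at the 2-fold limits. Of the genes called higher (11) or lower (14), both kinds occur within the ligand, receptor and antagonist groups. The 2 SMAD calls are lower, the only ID call (*ID2*) is higher, and *INHBA* lies farthest from 0 at -5.62.

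The largest decrease of the list was that of an activin chain, *INHBA*. *INHBA* encodes the chain that pairs to form activin A, and lies on chromosome 2 (50568700 to 50587618, GRCg6a). It was read at 639, 450, 256 and 361 CPM in free replicates 1 to 4. In fusing replicates 1 to 4 it was read at 13.3, 4.20, 9.29 and 7.45 CPM. Every fusing library was thus far below every free one, and the log2 fold change was -5.62 ± 0.43 (SE, n = 4 per tissue, edgeR adjusted p = 8.08e-05), a 49.2-fold decrease. *INHBB*, the chain of activin B, moved the other way from a very low level. Its CPM were 0.452, 1.08, 0.442 and 0.644 in free and 2.59, 3.57, 2.13 and 2.10 in fusing libraries. The groups did not overlap, and the log2 fold change was 1.97 ± 0.37 (edgeR adjusted p = 0.00278). The rise of *INHBB* did not make up for the loss of *INHBA* in transcripts per length. The activin and inhibin chains together summed to 75.1 ± 28.5 CPM per kb in free and 1.86 ± 0.615 CPM per kb in fusing discs (SD, n = 4 each). *INHA*, the inhibin alpha chain, did not reach the filter's minimum, at 3 counts in all free and 2 in all fusing libraries (rate ratio 0.504, exact 95% interval 0.0421 to 4.4, counting error only), and a difference was not detectable at this depth.

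The TGF-beta chains on the member list changed by less than 2-fold, in opposite directions. *TGFB2* and *TGFB3* encode secreted TGF-beta isoforms that act through the same pair of receptors. *TGFB2* was at 81.1, 51.5, 87.6 and 96.5 CPM in free and 142, 97.0, 129 and 132 CPM in fusing libraries. The lowest fusing value was just above the highest free one, and the log2 fold change was 0.66 ± 0.20 (edgeR adjusted p = 0.0287, under 2-fold and so not called). *TGFB3* was at 133, 157, 106 and 135 CPM in free and 70.7, 58.6, 99.6 and 84.4 CPM in fusing libraries. All 4 fusing values were below the free ones, with a log2 fold change of -0.76 ± 0.19 (edgeR adjusted p = 0.0105, not called). With library totals the *TGFB2* change was 1.34 and was called, and that of *TGFB3* was -0.073. Per length *TGFB3* stayed more abundant than *TGFB2* in both tissues, at 60.8 against 17.3 CPM per kb in free discs and 35.8 against 27.4 CPM per kb in fusing discs. *TGFB1*, which is not a member, was at 37.1 CPM per kb in free and 38.6 CPM per kb in fusing discs. It was thus above *TGFB3* in fusing discs and was not called (log2 fold change 0.057 ± 0.14, edgeR adjusted p = 0.785).

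Among the 10 BMP and GDF ligands, 3 were called higher and 3 lower. Those that fell were *GDF5*, *GDF10* and *BMP7*. *GDF5*, on chromosome 20 (1255929 to 1258979, GRCg6a), marks the joint interzone in embryos. It was at 69.3, 51.2, 42.2 and 26.1 CPM in free libraries and 4.37, 2.04, 10.8 and 2.06 CPM in fusing ones. The free libraries were spread over more than 2-fold, yet the lowest was above every fusing library. Its log2 fold change was -3.29 ± 0.55 (edgeR adjusted p = 0.00153), and it was -4.04 without fusing replicate 3, the highest fusing library. *GDF10*, a ligand also known as BMP3B, was steady among free discs at 96.2, 137, 117 and 124 CPM, and was at 20.9, 14.6, 34.4 and 12.9 CPM in fusing discs. The gap between the tissues was wide, with a log2 fold change of -2.52 ± 0.30 (edgeR adjusted p = 0.000332). *BMP7*, an osteogenic ligand, was at 71.5, 38.7, 33.1 and 43.0 CPM in free and 27.0, 23.8, 19.9 and 18.5 CPM in fusing libraries. The groups did not overlap, but the change of -1.07 ± 0.24 (edgeR adjusted p = 0.00758) was close to the 2-fold limit. It was not called without free replicate 1 (-0.79), without fusing replicate 4 (-0.98) or with library totals (-0.37).

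The ligands that rose, *BMP3*, *BMP5* and *GDF11*, were all low in free discs. *BMP3* differs from most BMPs in that it restrains bone formation in mice. It was at 1.16, 0.271, 1.86 and 0.429 CPM in free and 13.4, 3.44, 10.4 and 9.73 CPM in fusing libraries. Fusing replicate 2 was the lowest of its tissue and still above all free libraries, for a log2 fold change of 3.28 ± 0.59 (edgeR adjusted p = 0.00222). *BMP5*, a ligand of skeletal condensations, was at 0.905, 0.271, 1.77 and 3.22 CPM in free libraries and between 6.70 and 7.51 CPM in all 4 fusing ones. The fusing libraries were close together while the free ones varied, and the log2 fold change was 2.20 ± 0.54 (edgeR adjusted p = 0.0101), or 2.81 without free replicate 4. *GDF11*, a relative of myostatin that helps to pattern the axial skeleton, was at 1.03, 5.51, 3.01 and 3.22 CPM in free and 10.3, 14.6, 15.5 and 20.1 CPM in fusing libraries. The groups were separated, with a log2 fold change of 2.26 ± 0.43 (edgeR adjusted p = 0.00305).

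The other 4 ligands were not called. *BMP2* was at 29.8 to 83.6 CPM in free and 19.9 to 56.0 CPM in fusing libraries (log2 fold change -0.55 ± 0.35, edgeR adjusted p = 0.243). *BMP4* was at 4.61 to 19.2 CPM in free and 11.2 to 16.6 CPM in fusing libraries (0.29 ± 0.37, adjusted p = 0.576). For both genes the tissues overlapped. *BMP6* was the most abundant of the 10 per length, at 44.1 ± 7.71 CPM per kb in free and 25.3 ± 5.13 CPM per kb in fusing discs (SD, n = 4 each). Its CPM were 198, 226, 146 and 197 in free and 98.6, 97.5, 143 and 100.4 in fusing libraries, with the highest fusing library just under the lowest free one. The change of -0.80 ± 0.18 (edgeR adjusted p = 0.00755) was under 2-fold and not called, and 34.1% of the exon bases of *BMP6* overlap those of *TXNDC5*, so that its counts are less certain. *GDF6*, a paralog of *GDF5*, was near the limit of detection in free replicates 1, 3 and 4 (0.129, 0.0884 and 0.107 CPM) and at 1.08 CPM in free replicate 2. Fusing libraries gave 1.94, 2.29, 0.457 and 1.23 CPM. The groups overlapped through these single libraries. The log2 fold change of 2.04 ± 0.79 was not called (edgeR adjusted p = 0.0679), and it was called in the fit with the replicate number as a block (2.37, adjusted p = 0.0196), with DESeq2 (2.07, adjusted p = 0.0491), with limma-voom (2.38, adjusted p = 0.0354), with library totals (2.81), without free replicate 2 (3.61) and without fusing replicate 3 (2.32).

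**Figure D2:**
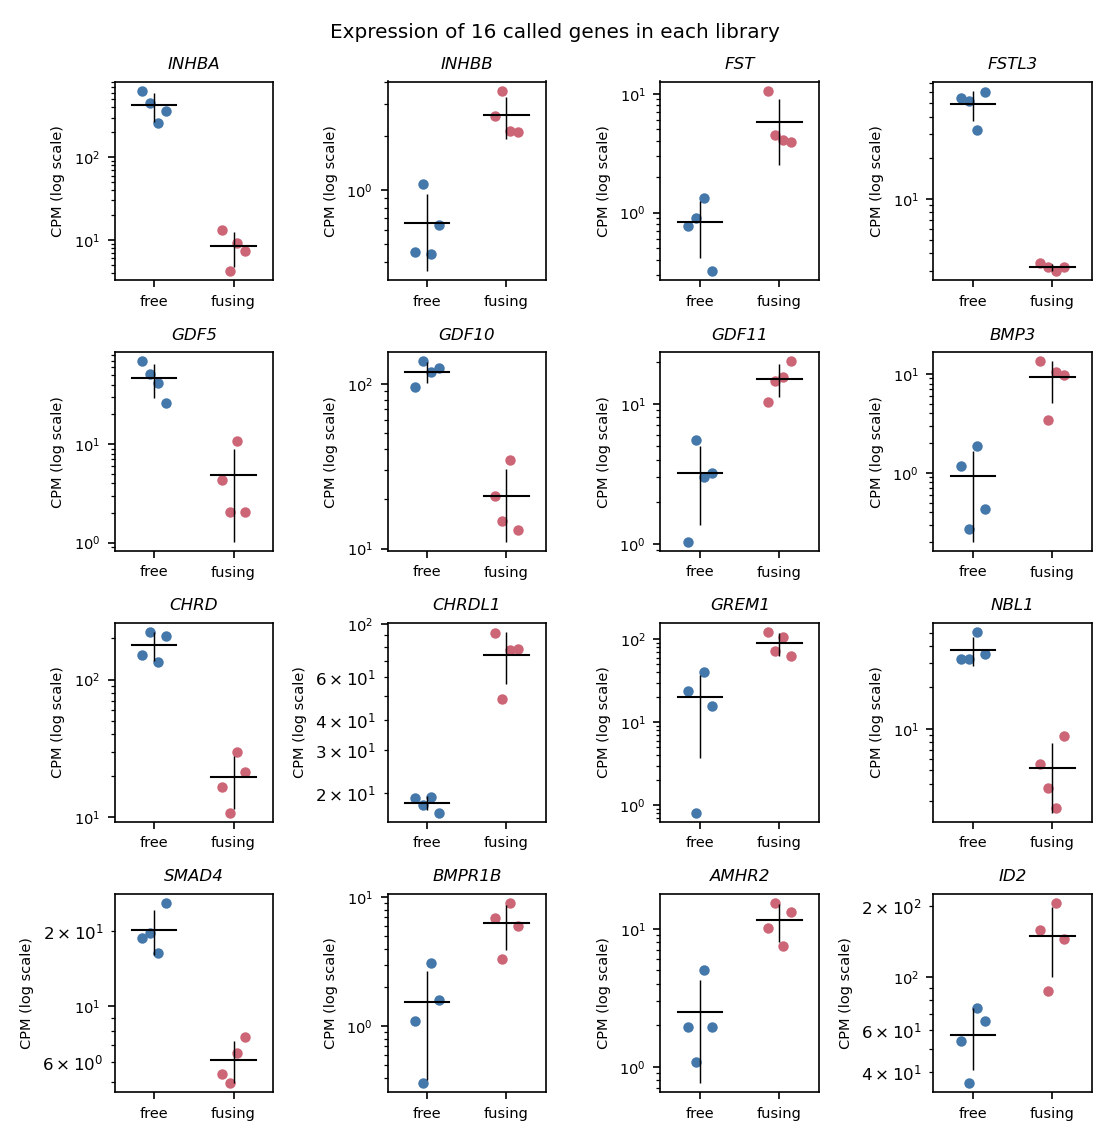
CPM of 16 called members in each library on a log axis, 4 free and 4 fusing libraries per panel in replicate order, with horizontal lines at the means and vertical bars of 1 SD. In each panel the tissues do not overlap, and *INHBA* runs from at least 256 CPM in free discs to at most 13.3 CPM in fusing discs, while *GREM1* in free replicate 2 is at 0.814 CPM.

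Each chain was also described as a share of the summed CPM per kb of the 15 ligand chains in its own library, with no test. The 15 chains do not all use the same receptors, and the shares describe transcripts only. The sum was 285 ± 42.5 CPM per kb in free and 132 ± 21.2 CPM per kb in fusing discs (SD, n = 4 each). It depends on the scaling between libraries, whereas the shares within a library do not. In free discs *INHBA* made up a median of 25.0% (19.0 to 33.4%), ahead of *TGFB3* at 21.7%, *BMP6* at 15.5%, *GDF5* at 11.4% and *GDF10* at 10.3%. In fusing discs *TGFB3* led with 27.2%, followed by *TGFB2* with 20.9% and *BMP6* with 19.2%, and *INHBA* was down to 1.01% (0.706 to 1.74%). *TGFB2* had a median share of 6.56% in free discs, *GDF5* and *GDF10* had 1.71% and 3.30% in fusing discs, and *GDF11* went from 0.739 to 7.15%. Of these 15 chains, the leading one was therefore an activin chain in 3 of the 4 free libraries and a TGF-beta chain in all 4 fusing ones. Ligands outside the member list were left out of the sum. Among them, *TGFB1* averaged 37.1 CPM per kb in free and 38.6 in fusing discs. *BMP8A* averaged 9.87 and 37.8 CPM per kb and was called higher (log2 fold change 1.94 ± 0.45, edgeR adjusted p = 0.00783). In fusing discs both means were above the 35.8 CPM per kb of *TGFB3*.

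**Figure D3:**
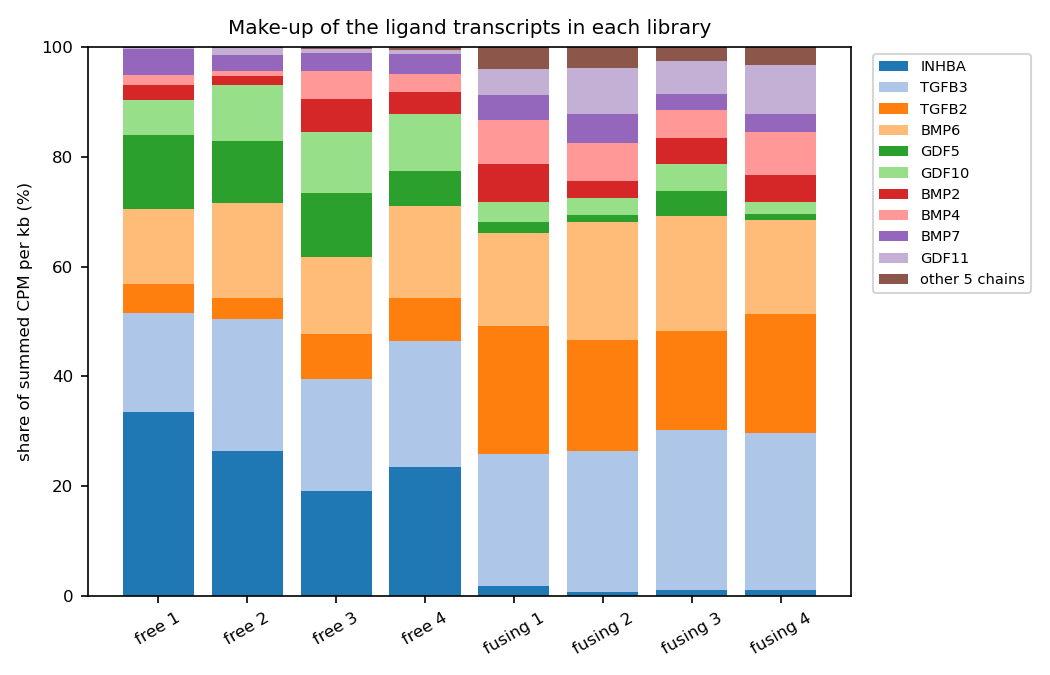
Share of each ligand chain, in percent of the summed CPM per kb of the 15 chains, stacked for each of the 8 libraries, with the 5 rarest chains joined. *INHBA* fills between 19.0 and 33.4% of each free library and at most 1.74% of each fusing library, where *TGFB2* and *TGFB3* fill the largest part.

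The receptor genes *TGFBR1*, *TGFBR2*, *TGFBR3* and *ACVR1* were lower in fusing pygostyle IVDs. Of the 10 receptors tested, 4 were called lower and 2 higher. Outside the member list, the type I receptors *ACVR1B* (log2 fold change 0.067) and *ACVRL1* (0.60) were not called. *ACVR1C*, at 0.181 to 0.776 CPM in free discs, was called higher (2.13 ± 0.72, edgeR adjusted p = 0.0412). That call was lost in 7 of 16 alternative settings. *TGFBR2* encodes the type II receptor that binds TGF-beta. It was at 231, 194, 150 and 162 CPM in free and 78.1, 64.0, 84.0 and 54.0 CPM in fusing libraries. The groups were far apart, with a log2 fold change of -1.40 ± 0.19 (edgeR adjusted p = 0.000601). *TGFBR1*, its type I partner, was at 44.8, 40.4, 29.2 and 52.0 CPM in free and 23.6, 17.8, 23.8 and 17.0 CPM in fusing libraries. It did not overlap between tissues, and its change of -1.01 ± 0.20 (edgeR adjusted p = 0.00331) stood at the 2-fold limit. *TGFBR3*, the co-receptor betaglycan, was at 30.6, 16, 21.1 and 23.2 CPM in free and 15.1, 7.64, 9.74 and 5.13 CPM in fusing libraries. Free replicate 2 and fusing replicate 1 nearly met, and the log2 fold change was -1.27 ± 0.33 (edgeR adjusted p = 0.0132). *ACVR1*, a type I receptor for BMPs and the receptor altered in fibrodysplasia ossificans progressiva, was the most abundant receptor per length at 58.4 ± 3.28 CPM per kb in free and 28.5 ± 6.72 CPM per kb in fusing discs (SD, n = 4 each). Its CPM were 206, 203, 188 and 216 in free and 105, 80.3, 130 and 81.1 in fusing libraries. Free discs hardly varied, and all fusing discs were lower, with a log2 fold change of -1.04 ± 0.17 (edgeR adjusted p = 0.00145).

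With library totals none of these 4 receptors was called (*TGFBR2* -0.71, *TGFBR1* -0.31, *TGFBR3* -0.59 and *ACVR1* -0.35). *TGFBR1* also lost its call with limma-voom (-0.99), without free replicate 1 (-0.98) or 4 (-0.90), and without fusing replicate 2 (-0.96) or 4 (-0.93). *ACVR1* lost it without fusing replicate 2 or 4 (-0.95 in both), whereas *TGFBR2* (-1.51 to -1.28) and *TGFBR3* (-1.63 to -1.06) kept theirs whichever library was left out.

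The receptors that rose were *BMPR1B* and *AMHR2*, which were scarce in free discs. *BMPR1B* is a type I BMP receptor of early cartilage and the main receptor of GDF5. It was at 1.10, 0.362, 3.09 and 1.61 CPM in free and 6.86, 3.31, 9.06 and 6.01 CPM in fusing libraries. The lowest fusing and the highest free library nearly met, and the log2 fold change was 2.04 ± 0.54 (edgeR adjusted p = 0.0152), or 2.63 without free replicate 3. *AMHR2*, the type II receptor of anti-Müllerian hormone, was at 1.94, 1.08, 5.04 and 1.93 CPM in free and 10.0, 15.4, 7.46 and 13.1 CPM in fusing libraries. The groups were separated, with a log2 fold change of 2.20 ± 0.44 (edgeR adjusted p = 0.00407), and 7.0% of its exon bases overlap *OSBPL11*. Even in fusing discs both genes stayed at or under 2.00 CPM per kb on average, well below *ACVR1*.

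The other receptors were not called. *BMPR1A*, the broadly expressed type I BMP receptor, was at 51.9 to 64.0 CPM in free and 22.9 to 40.6 CPM in fusing libraries, a separated change of less than 2-fold (-0.78 ± 0.18, edgeR adjusted p = 0.00882). The log2 fold changes were -0.28 for *BMPR2*, the type II BMP receptor, 0.15 for *ACVR2A*, a type II receptor of activins and BMPs, and -0.38 for *ENG*, the endothelial co-receptor endoglin, all with overlapping libraries. *ACVR2A* was the steadiest of the receptors, at 29.3 to 34.4 CPM in free and 30.3 to 40.0 CPM in fusing libraries (adjusted p = 0.339). As *TGFBR2* fell, the median share of *ACVR2A* among the 5 type II receptors, per length, was 13.95% in free and 26.2% in fusing discs, and that of *TGFBR2* was 74.4 and 47.5%. *ACVR2B*, the other activin type II receptor, missed the filter, with 7 counts in the free and 30 in the fusing libraries (rate ratio 3.24, exact 95% interval 1.39 to 8.74, counting error only).

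Antagonists moved strongly in both directions. Of 10 tested, 4 were called higher and 4 lower, and the direction differed between close relatives. *CHRD* encodes chordin, which holds BMPs away from their receptors, and lies on chromosome 9 (16088743 to 16097338, GRCg6a). It was at 150, 222, 135 and 206 CPM in free and 16.6, 10.8, 29.99 and 21.3 CPM in fusing libraries. It fell in every fusing library, with a log2 fold change of -3.17 ± 0.31 (edgeR adjusted p = 0.00015). *CHRDL1*, the chordin-like paralog, rose. It was at 18.9, 17.7, 19.2 and 16.5 CPM in free and 91.8, 48.9, 78.1 and 78.3 CPM in fusing libraries. The free libraries were almost alike, and the log2 fold change was 2.04 ± 0.19 (edgeR adjusted p = 0.000107). Per length *CHRD* went from 44.0 CPM per kb in free discs to 4.86 in fusing discs, and *CHRDL1* from 3.01 to 12.3. *CHRDL2*, a relative outside the member list, went from 35.6 to 2.37 CPM per kb.

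The follistatin family was split in the same way. *FST*, on chromosome Z (16072541 to 16079184, GRCg6a), encodes follistatin, which binds activins almost irreversibly. It was at 0.776, 0.904, 1.33 and 0.322 CPM in free and 10.6, 4.46, 4.11 and 3.90 CPM in fusing libraries. Fusing replicate 1 stood above the other 3, all fusing libraries were above all free ones, and the log2 fold change was 2.78 ± 0.48 (edgeR adjusted p = 0.00194). *FSTL3*, on chromosome 28 (2836657 to 2844986, GRCg6a), encodes another activin-binding protein. It was at 55.0, 51.7, 31.7 and 59.98 CPM in free and between 2.97 and 3.40 CPM in all fusing libraries. Its log2 fold change of -3.96 ± 0.21 (edgeR adjusted p = 2.62e-05) was the second largest of the list in size, and 6.4% of its exon bases overlap another gene model. *FSTL1*, a secreted glycoprotein related in sequence, was the most abundant antagonist per length in free discs at 143 ± 15.7 CPM per kb and was at 45.8 ± 3.51 CPM per kb in fusing discs (SD, n = 4 each). Its CPM were 527, 662, 551 and 637 in free and 201, 175, 205 and 181 in fusing libraries. Replicates were close and the tissues far apart, with a log2 fold change of -1.64 ± 0.14 (edgeR adjusted p = 9.37e-05). It was -0.94 and not called with library totals.

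The DAN family of BMP antagonists was also split. *NBL1*, which encodes DAN itself, was at 32.2, 32.3, 50.5 and 34.9 CPM in free and 5.56, 3.69, 2.66 and 8.90 CPM in fusing libraries. It fell in all of them, with a log2 fold change of -2.81 ± 0.35 (edgeR adjusted p = 0.000392), though 54.4% of its exon bases overlap *HTR6* and its counts are less certain. *GREM1*, gremlin, rose in the mean and varied widely among free discs. It was at 24.0, 0.814, 40.3 and 15.7 CPM in free and 122, 71.7, 108 and 62.8 CPM in fusing libraries. No libraries overlapped, and the log2 fold change was 2.17 ± 0.74 (edgeR adjusted p = 0.0419). The call was close to the threshold. It was lost without free replicate 1 or 4, without any 1 of the 4 fusing replicates (adjusted p 0.0619 to 0.105, log2 fold change 1.98 to 2.32), and in the fit blocked on the sample code number (3.23, adjusted p = 0.054). That blocked fit takes no tissue difference from free replicate 3 or fusing replicate 2, whose codes occur once. The limma-voom value was 2.96. *SOSTDC1*, another antagonist of this group, missed the filter too, with 23 counts in the free and 8 in the fusing libraries (rate ratio 0.263, exact 95% interval 0.102 to 0.609, counting error only).

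*BMPER*, a modulator that can raise or lower BMP activity, was at 8.40, 15.7, 7.43 and 10.4 CPM in free and 14.9, 18.5, 38.9 and 22.2 CPM in fusing libraries. It was the only called member whose libraries overlapped, since free replicate 2 was above fusing replicate 1. Its log2 fold change of 1.17 ± 0.34 (edgeR adjusted p = 0.0213) was not called without free replicate 1 (1.07), 3 (1.03) or 4 (1.16), or without fusing replicate 3 (0.80). *NOG*, which encodes noggin, was at 6.10 to 9.31 CPM in free and 5.48 to 19.3 CPM in fusing libraries and was not called (0.55 ± 0.34, adjusted p = 0.231). *BAMBI*, a decoy receptor with no kinase, was the most abundant of the group in fusing discs, at 179 ± 5.22 CPM per kb against 82.5 ± 58.2 CPM per kb in free discs (SD, n = 4 each). Its CPM were 87.0, 16.9, 199 and 130 in free and 237, 233, 227 and 243 in fusing libraries. The fusing libraries were nearly equal and all above the free ones, while the free ones spread over more than 10-fold. The change of 1.12 ± 0.55 was not called (edgeR adjusted p = 0.136), and it was called with library totals (1.77) and when free replicate 3 was left out (1.59).

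The summed CPM of the osteoblast markers in free replicates 1 to 4 was 133, 19.4, 509 and 202, and that of the hypertrophic cartilage markers was 1644, 51.4, 7702 and 1696. Free replicate 2 was thus the lowest and free replicate 3 the highest for both marker lists, for *GREM1* and for *BAMBI*. Among the other members called higher, *BMP3*, *BMPR1B*, *AMHR2* and *ID2* had the same lowest and highest free libraries. *BMP5*, *GDF11*, *INHBB*, *CHRDL1*, *FST* and *BMPER* did not. Uncalled members such as *BMP2* and *BMP4* had them too. The order was not particular to these 2 marker lists. Summed endothelial markers, at 181, 172, 530 and 477 CPM in free replicates 1 to 4, had the same lowest and highest libraries. The macrophage, osteoclast, cartilage, nucleus pulposus and smooth muscle or pericyte sums were also highest in free replicate 3, but lowest in free replicate 1. The part of RNA from any of these cell types in the levels of these genes was not tested.

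**Figure D4:**
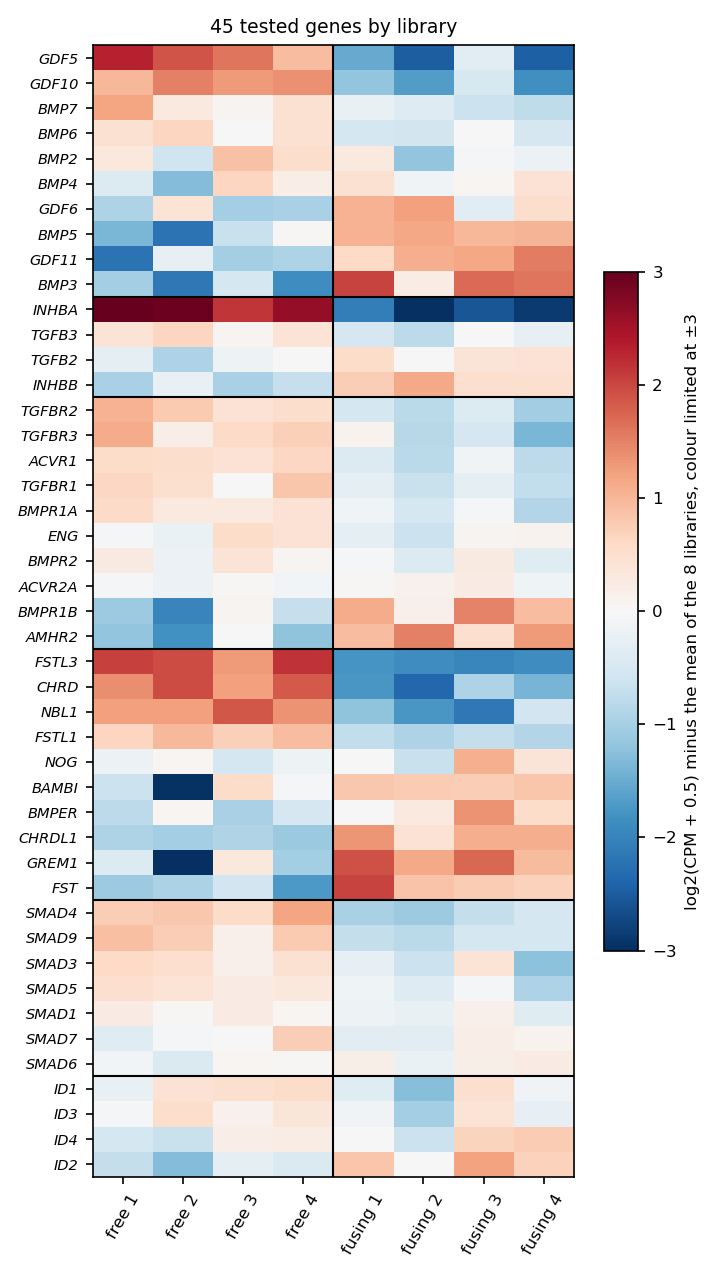
Log2(CPM + 0.5) of the 45 tested members in each library minus the gene's mean over the 8 libraries, with columns for the 4 free and 4 fusing libraries, rows grouped by role, and colour limited at 3 in both directions. *INHBA* reaches that limit, free replicate 2 is dark blue for *BAMBI* and *GREM1*, and the ligand, receptor and antagonist groups each hold rows of both directions.

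Of the 7 SMADs tested, none was called higher and 2 were called lower. *SMAD4*, the shared partner of both branches, was at 18.7, 19.6, 16.4 and 25.9 CPM in free and 5.40, 4.97, 6.55 and 7.58 CPM in fusing libraries. It fell in every fusing library, with a log2 fold change of -1.71 ± 0.20 (edgeR adjusted p = 0.000308), and it lies on chromosome 25 (3338469 to 3344036, GRCg6a). *SMAD9*, a BMP effector also known as SMAD8, was at 27.0, 23.9, 15.6 and 24.9 CPM in free and 8.37, 7.89, 9.59 and 9.60 CPM in fusing libraries. The tissues were separated, with a log2 fold change of -1.36 ± 0.19 (edgeR adjusted p = 0.000598), which was -0.67 and not called with library totals. Of the other BMP effectors, *SMAD5* was at 149 to 178 CPM in free and 65.4 to 121 CPM in fusing libraries, a separated change of less than 2-fold (-0.71 ± 0.19, adjusted p = 0.0156). *SMAD1* changed by -0.28 ± 0.13 (adjusted p = 0.125), with 9.1% of its exon bases shared with *MMAA*. Per length *SMAD9* was the scarcest of these 3 effectors in both tissues, at 1.33 CPM per kb in free and 0.517 CPM per kb in fusing discs.

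*SMAD3*, the effector of TGF-beta and activin, was at 27.1 to 37.4 CPM in free and 10.2 to 32.7 CPM in fusing libraries. It was not called (-0.76 ± 0.31, edgeR adjusted p = 0.0806), and it was called lower without fusing replicate 3 (-1.12), the highest fusing library. The inhibitory SMADs changed little. *SMAD6*, which blocks the BMP branch and was the most abundant SMAD per length in fusing discs, was at 21.2 ± 3.15 CPM per kb in free and 24.3 ± 3.15 CPM per kb in fusing discs (SD, n = 4 each; log2 fold change 0.20 ± 0.15, adjusted p = 0.303). *SMAD5* led in free discs with 22.6 CPM per kb. *SMAD7*, which blocks both branches, changed by -0.20 ± 0.24 (adjusted p = 0.547).

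*SMAD2*, the other TGF-beta effector, has a copy on each sex chromosome of the chicken. The Z copy gave 9.76, 18.1, 11.1 and 19.3 CPM in free and 11.5, 22.3, 18.6 and 22.0 CPM in fusing libraries, with overlap and no call (log2 fold change 0.35 ± 0.28, edgeR adjusted p = 0.351). The W copy, *SMAD2W*, gave 471, 306 and 361 counts in free replicates 1 and 3 and fusing replicate 1, and at most 2 counts in the other 5 libraries. *SMAD7B*, a W-linked copy of *SMAD7*, gave 132, 106 and 91 counts in the same 3 libraries and at most 1 in the others. Libraries with W-linked transcripts thus numbered 2 of 4 in free and 1 of 4 in fusing discs, and the libraries numbered 3 in the titles differ in this. The 3 libraries with W-linked transcripts had the lowest values of the Z copy of *SMAD2*, at 9.76 to 11.5 CPM, against 18.1 to 22.3 CPM in the others. *FST* and *SMAD7* did not split in this way. The part of sex in the values of the Z-linked *FST*, *SMAD7* and Z copy of *SMAD2* was not tested.

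*ID2* was the only called gene of the 4 ID targets. The ID proteins bind helix-loop-helix transcription factors and keep them off DNA. *ID2* was at 53.6, 35.7, 74.0 and 65.6 CPM in free and 158, 87.5, 206 and 145 CPM in fusing libraries. All fusing libraries were above the free ones, and the log2 fold change was 1.38 ± 0.29 (edgeR adjusted p = 0.00487). *ID1* and *ID3*, the paralogs most often used as readouts of BMP activity, were not called, with log2 fold changes of -0.53 ± 0.33 (adjusted p = 0.236) and -0.41 ± 0.27 (adjusted p = 0.259). *ID4* changed by 0.43 ± 0.33 (adjusted p = 0.331), and by 1.08 with library totals, where it was called. In free discs *ID1* was the most abundant per length (174 ± 38.5 CPM per kb) with *ID3* (170 ± 30.2 CPM per kb) close to it, and *ID2* was the least abundant (47.9 ± 13.9 CPM per kb). In fusing discs *ID1*, *ID2* and *ID3* were at 120 ± 56.5, 125 ± 40.7 and 127 ± 48.3 CPM per kb (SD, n = 4 each), within their spread of each other. The 4 genes together summed to 450 ± 75.2 CPM per kb in free and 451 ± 170 CPM per kb in fusing discs. These sums depend on the scaling between libraries. With library totals the log2 fold changes of all 4 were positive (*ID1* 0.13, *ID2* 2.03, *ID3* 0.27 and *ID4* 1.08).

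Ratios of 2 members within a library do not depend on how the libraries were scaled, and 14 pairs of partners or paralogs were compared in log2 counts per kb with a two-sided exact permutation test. In 10 pairs the tissues did not overlap, which gives an exact p of 0.0286, the smallest that 4 against 4 libraries allow, and an adjusted p of 0.04 over the 14 pairs. For *INHBA/FST*, *INHBA/INHBB*, *TGFB3/TGFB2* and *BMPR1A/BMPR1B*, the CPM of the members were already separated in opposite directions. Those ratios had to separate, so their p-values add no evidence to the changes given above. They are still counted among the 14 pairs of the adjustment, in which all 10 tied pairs share the adjusted p of 0.04. In *INHBA/FSTL3* both members were already separated, and in *GDF5/GDF6*, *BMP2/GREM1* and *ID2/ID4* 1 of them was. The p-values of these pairs are thus not independent of the changes of their members. Only in *BMP2/BMP4* and *SMAD6/SMAD1* was neither member separated. Their adjusted p of 0.04 depends in part on the other pairs that separated, and they were not adjusted apart from those. The test does not pair the libraries, and paired by replicate number no ratio could pass, since 4 pairs allow no exact p under 0.125. *INHBA* to *FST*, ligand chain to binding protein, had the largest shift. Its log2 ratio was 7.78 ± 1.06 in free and -0.62 ± 0.57 in fusing discs (SD, n = 4 each). Per length, *INHBA* thus exceeded *FST* about 220-fold in free discs and was below it in fusing discs. *INHBA* to *INHBB* went from 9.74 ± 0.76 to 2.10 ± 0.95. The sizes of both ratios in free discs are uncertain. In free replicates 1 to 4, *FST* had 12, 10, 15 and 3 counts and *INHBB* had 7, 12, 5 and 6. *INHBA* to *FSTL3*, which fell together, still differed by -1.76 (from 1.39 ± 0.39 to -0.37 ± 0.68). In every fusing library *INHBA* was below *FST* per length, and in every free library it was above *FST*, *FSTL3* and *INHBB*.

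The other shifted pairs concerned isoforms and paralogs. *TGFB3* to *TGFB2* went from 1.83 ± 0.59 to 0.37 ± 0.26. *BMP2* to *BMP4* went from 0.48 ± 0.29 to -0.53 ± 0.46, although neither gene was called on its own. *BMP2* to its antagonist *GREM1* went from 1.89 ± 1.89 to -1.71 ± 0.49. Per length, the order of the members turned over in these last pairs, since the mean log2 ratio changed sign. For *BMP2* and *BMP4* that order rests on the exon lengths used, 5947 and 1546 bases. In counts, *BMP2* was above *BMP4* in every library of both tissues. *GDF5* to *GDF6* differed by -5.93 and *BMPR1A* to *BMPR1B* by -3.07, with the first gene still ahead in both tissues. *GDF6* had 2, 12, 1 and 1 counts in free replicates 1 to 4, so the size of its ratio is uncertain. *SMAD6* to *SMAD1* rose by 0.49 and *ID2* to *ID4* by 0.99. In the remaining 4 pairs the libraries overlapped. *BMP4* to *NOG* differed by 0.033 (exact p = 0.943), *TGFBR1* to *TGFBR2* by 0.40 (exact p = 0.143), *SMAD7* to *SMAD3* by 0.71 (exact p = 0.2) and *ID1* to *ID3* by -0.15 (exact p = 0.429).

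**Figure D5:**
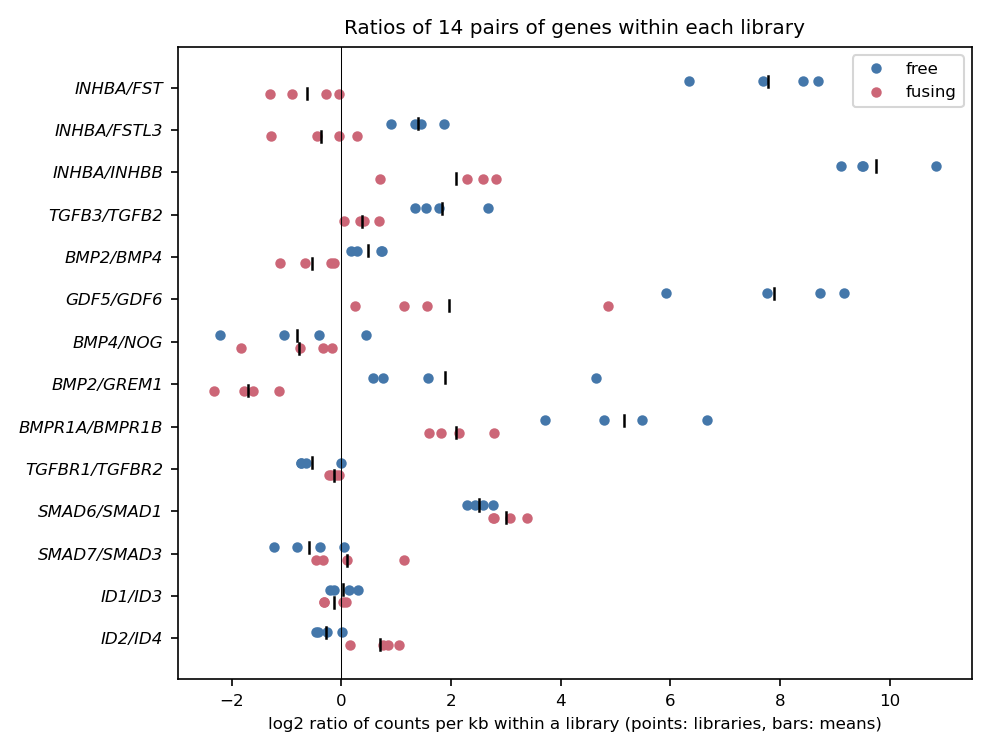
Log2 ratios of counts per kb for 14 pairs of members, 1 point per library, with free discs above and fusing discs below on each line and bars at the means. The 4 fusing points of *INHBA/FST* lie between -1.29 and -0.04, against 6.34 to 8.70 in free discs, whereas the tissues overlap for *BMP4/NOG*, *TGFBR1/TGFBR2*, *SMAD7/SMAD3* and *ID1/ID3*.

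Other genes of these pathways were taken from a list of 79 symbols, of which 67 were found and 58 tested. Calls went to 11 of them as higher (19.0%) and to 14 as lower (24.1%), beside 13.2% and 9.64% of all tested genes. Their median log2 fold change was -0.32. This list too was chosen with earlier results of these data known, so its shares do not test for an excess of calls. Other ligands gave 3 higher and 1 lower of 8, other receptors 1 and 1 of 5, extracellular modulators and latency proteins 5 and 8 of 20, intracellular regulators 0 and 2 of 14, and target genes 2 and 2 of 11. *GDF7*, a paralog of *GDF5* and *GDF6*, was at 4.14, 1.81, 21.9 and 7.19 CPM in free and 72.3, 37.4, 67.8 and 47.0 CPM in fusing libraries (log2 fold change 2.69 ± 0.63, edgeR adjusted p = 0.00857). Within this subfamily *GDF5* was thus lower and *GDF7* higher in fusing discs. The value for *GDF7* was 3.69 without free replicate 3. It was 3.93 in the fit blocked on the sample code number, which takes no tissue difference from free replicate 3 or fusing replicate 2. Of its exon bases, 4.6% overlap *LDAH*. *MSX1*, a homeobox target of BMP signals, was at 0.644 to 1.59 CPM in free and 10.96 to 20.2 CPM in fusing libraries (3.81 ± 0.34, edgeR adjusted p = 9.77e-05). *FSTL5*, a follistatin-like gene, had 6 counts in all free libraries together, all in free replicate 4, and 750 in the fusing ones (6.40 ± 1.03, edgeR adjusted p = 0.00132, and 10.4 without free replicate 4, a fit against 0 counts that gives no size).

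The extracellular genes with the largest decreases were highly expressed in free discs. *CHRDL2*, the third chordin relative, was at 227, 756, 178 and 143 CPM in free and 25.6, 11.3, 34.6 and 15.3 CPM in fusing libraries (-3.90 ± 0.62, edgeR adjusted p = 0.00124, and -3.07 without free replicate 2). It moved with *CHRD* and against *CHRDL1*, and 0.7% of its exon bases overlap *RNF169*. *HTRA1*, a secreted protease that can cleave matrix and growth factor proteins, was at 1202 to 2200 CPM in free and 109 to 280 CPM in fusing libraries (-3.13 ± 0.32, edgeR adjusted p = 0.000175). *DCN*, the matrix proteoglycan decorin that binds TGF-beta, was at 9588 to 15140 CPM in free and 1174 to 1971 CPM in fusing libraries (-3.09 ± 0.30, edgeR adjusted p = 0.000135).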

How the data were processed

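The polyA-selected libraries were not stranded. The authors used STAR to align the reads to GRCg6a and featureCounts to count uniquely mapped reads per gene, and deposited the whole-number counts unscaled. A second deposited table, with fold changes, p-values and mean normalized values of the authors' DESeq2 comparison, was not used. No column of another sample was found (0).

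Members and lists were chosen with earlier results of these data known. Libraries were grouped by the tissue in their titles. edgeR 4.0.16 (R 4.3.3, TMM factors, quasi-likelihood test, filterByExpr with a minimum count of 10 and total of 15) compared the tissues over all 13639 tested genes without further terms. Calls needed an adjusted p under 0.05 and a log2 fold change over 1 in size. The SE given with an edgeR fold change is not an output of edgeR. It was derived as the size of the log2 fold change divided by the square root of the test's F statistic. CPM per kb divides CPM by the exon length of the gene in the deposited annotation. Ratios used log2 of counts + 0.5 per kb and two-sided exact permutation tests (scipy 1.17.1), adjusted over 14 pairs. Rate intervals are exact at 95% and cover counting error only. Because strand was ignored in counting, shared exon bases are given as a share of the gene's exon length. Chromosomes were named by the genes that each holds in RefSeq's GRCg7b table, whose coordinates were not used. The edgeR script was tested on simulated counts.

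Every member is accounted for. Called members, the member of each role group with the highest level per length, and members with an adjusted p under 0.05 but under 2-fold are given in full, and of the other pathway genes up to 3 called changes in each direction with a mean of at least 5 CPM. Alternatives were library totals, RLE factors, DESeq2 1.42.0, limma-voom (limma 3.58.1), no filter, 1 CPM in 4 libraries, the number in the titles or in the sample codes as a block, other added counts, and each library left out. The titles give both tissues the same replicate numbers. Deviations from the tissue means of same-numbered libraries correlated at 0.26, 0.171, 0.119 and 0.248, all over 0.1, and the fit with the number as a block is given where it changes a call, while the main fit and the ratio tests are unpaired. Differently numbered libraries reached 0.183 (free 3 with fusing 1) and 0.138 (free 4 with fusing 3). No source says what the numbers mark. W-linked counts differ within pair 3, so its libraries are not from a single bird. The sample code numbers 12, 10 and 8 each occur in both tissues (free 1 with fusing 1, free 2 with fusing 3 and free 4 with fusing 4). Codes 9 (free 3) and 11 (fusing 2) occur once, so the fit blocked on the code takes no tissue difference from these libraries. Libraries of the same code correlated at 0.26, -0.07 and 0.248. *SMAD2W* had 471 and 361 counts in the libraries of code 12 and at most 2 in those of codes 10 and 8.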

Additional observations from a re-analysis of the deposited data

Results flagged for a closer look

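Among 90 groups of 4 libraries, 1 per tissue and tested member, 4 held a library that stood apart from the other 3 of its tissue by Dixon's 95% limit, and chance gives about 5%. *FST* was at 10.6 CPM in fusing replicate 1, against 3.90 to 4.46 CPM in the other fusing libraries. *GDF6* was at 1.08 CPM in free replicate 2, against 0.0884 to 0.129 CPM in the other free libraries, and its change was called once that library was left out. *BMP6* was at 143 CPM in fusing replicate 3, against 97.5 to 100.4 CPM in the others. *NBL1* was at 50.5 CPM in free replicate 3, against 32.2 to 34.9 CPM in the others.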

How the results depend on the processing

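With library totals, 7 members were called lower, 4179 of all genes were called higher and 624 lower (1797 and 1315 with TMM factors), and 18 other pathway genes were called higher. Uncalled changes turned positive for *BMP2* (0.10), *BMPR2* (0.39), *ENG* (0.29), *SMAD1* (0.40), *SMAD7* (0.49), *ID1* (0.13) and *ID3* (0.27), and no called member turned. *SMAD7* was between -0.35 and 0.065 with 1 library left out, the highest without free replicate 4. With the replicate block, 12 members were called higher and 14 lower, and of the members only the call of *GDF6* changed. Blocked on the sample code number, 10 were called higher and 14 lower, *BMP3* was at 4.22 and *BMPR1B* at 2.88. That fit takes no tissue difference from free replicate 3 and fusing replicate 2, whose codes occur once, so it differs from the main fit by more than the block. DESeq2 called 12 and 14 members, limma-voom 12 and 13. Leaving out 1 library gave 9 to 12 members higher and 11 to 15 lower. With 0.1, 0.5 or 2 added to each count, 10 ratios passed. With 3 against 4 libraries the smallest exact p is 0.0571, and with 4 pairs it is 0.125, so ratios could not pass there. Depth limited *INHA*, *ACVR2B* and *SOSTDC1*.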
